A study of Rattus norvegicus with 6 samples.

Results

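The genes described here are a set of 10 axon regeneration-associated genes, Gap43, Basp1, Marcks, Stmn2, Dpysl3, Tubb3, Sox11, Atf3, Klf6 and Klf7, chosen by their names from the 33455 genes of a count table. All 10 were found and all 10 passed the filter on low counts. The table holds 6 RNA-seq libraries of the rat spinal cord lesion core: 3 from animals given ultrasound with a piezoelectric gel (Piezo Gel+US) and 3 from animals given ultrasound with a gel (Gel+US). All 6 animals were labelled wild type and had a contusion injury at T9, and each sample was about 5 mm3 of tissue from the centre of the lesion, labelled as a biological replicate. Both groups were stimulated at 100 Hz and 1 W/cm2 for 10 min a day over 4 weeks, so no library here comes from uninjured cord or from an animal without ultrasound. The age, sex and strain of the animals are not given in the sources used here. Library totals ran from 18672101 to 21436820 counts in Piezo Gel+US and from 17212653 to 20198203 counts in Gel+US.

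An axon that regrows needs new membrane, a growth cone and a supply of tubulin, and injured peripheral neurons switch on a set of genes for this purpose. Transcription factors such as Atf3 and Sox11 act early in that programme, and proteins of the growth cone such as Gap43 carry it out. Central neurons of adult mammals raise these genes weakly after injury. Several of them are not limited to neurons: Atf3 is a stress-response gene of many cell types, Klf6 is broadly expressed, and Marcks is abundant in glia and macrophages as well as in neurons.

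Promoter windows ran from 250 bases before to 50 bases after the RefSeq gene start (build GRCr8). The set of windows used here held 7 of the 10 members, Basp1, Marcks, Dpysl3, Tubb3, Sox11, Klf6 and Klf7, with 2 windows for Dpysl3. Gap43, Stmn2 and Atf3 had no window in that set and are left out of the motif counts. Shown here are Sox11 and Dpysl3, the members whose libraries did not overlap between the groups, and Klf6, a member that lay on the other side. The authors' table gives coordinates of another, unnamed build, in which Gap43 lies at 27176383 to 27270177, Sox11 at 40872669 to 40881013 and Klf6 at 18752601 to 18761618 on the minus strand, and Dpysl3 at 1617667 to 1680326 on the plus strand. All are written 5′ to 3′ on the minus strand, at chr6:49738745-49739044 for Sox11, chr18:35731103-35731402 and chr18:35688462-35688761 for Dpysl3, and chr17:69458429-69458728 for Klf6. Capitals mark GGGCGG or its reverse complement, the GC box to which Sp and Krüppel-like factors bind.
Sox11: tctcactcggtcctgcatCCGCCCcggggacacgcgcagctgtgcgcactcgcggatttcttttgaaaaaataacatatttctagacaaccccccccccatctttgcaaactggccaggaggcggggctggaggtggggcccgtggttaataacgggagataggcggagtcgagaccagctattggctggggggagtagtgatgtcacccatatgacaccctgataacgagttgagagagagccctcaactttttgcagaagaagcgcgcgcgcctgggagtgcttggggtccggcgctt
Dpysl3, first window: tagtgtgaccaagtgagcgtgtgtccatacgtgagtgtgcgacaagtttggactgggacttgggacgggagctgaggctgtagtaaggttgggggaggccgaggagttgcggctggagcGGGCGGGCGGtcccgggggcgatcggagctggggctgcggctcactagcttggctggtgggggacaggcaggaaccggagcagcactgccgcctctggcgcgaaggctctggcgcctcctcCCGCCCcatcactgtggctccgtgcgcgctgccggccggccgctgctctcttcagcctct
Dpysl3, second window: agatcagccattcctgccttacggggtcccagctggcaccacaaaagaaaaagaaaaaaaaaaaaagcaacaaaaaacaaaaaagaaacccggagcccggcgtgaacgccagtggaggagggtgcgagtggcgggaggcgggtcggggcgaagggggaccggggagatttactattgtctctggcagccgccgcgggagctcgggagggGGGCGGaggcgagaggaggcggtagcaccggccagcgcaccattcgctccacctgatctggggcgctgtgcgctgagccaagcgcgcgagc
Klf6: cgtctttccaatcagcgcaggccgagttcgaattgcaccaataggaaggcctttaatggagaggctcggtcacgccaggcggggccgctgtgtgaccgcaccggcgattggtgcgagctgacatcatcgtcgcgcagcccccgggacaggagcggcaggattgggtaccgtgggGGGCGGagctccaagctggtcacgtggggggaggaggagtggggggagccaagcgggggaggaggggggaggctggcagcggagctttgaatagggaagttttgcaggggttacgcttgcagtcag
A GC box occurred in 7 of the 8 windows, all except that of Marcks, against 33.1% of the 33469 windows of all genes. The member windows were also rich in G and C, with 53.7% to 78.3% against a median of 51.7% over all windows. The CACCC box, searched on both strands and free to overlap the GC box, was in 5 of the 8 windows, against 54.9% of all. The E-box CAGCTG was in 2 windows, those of Sox11 and 1 of Dpysl3 (15.1% of all windows), and the Sox motif ACAAAG in that of Marcks (18.8% of all). TGANTCA of AP-1, TGACGTCA of the CRE and TATAAA were in 0 of the 8, and in 7.33%, 1.83% and 14.2% of all windows.

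Per kilobase of the gene length given in the table, Tubb3 was the most abundant member and Sox11 the least. Mean levels were 185 CPM per kb in Piezo Gel+US, against 317 in Gel+US for Tubb3, where CPM is counts scaled to a common library total. Stmn2 followed with 83.8 and 163 CPM per kb, and Basp1 with 61.5 and 80.3. Gap43, Marcks, Klf6, Dpysl3, Klf7 and Atf3 lay between 6.57 and 56.4 CPM per kb in either group. Sox11 averaged 0.357 CPM per kb in Piezo Gel+US, against 0.602 in Gel+US. With members ordered by the means of the group itself, the library ranges of neighbours above Sox11 overlapped, except in Gel+US, where Gap43 was next above Marcks and Klf6 next above Klf7 without overlap, whereas the range of Sox11 lay below that of every other member.

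Between the groups, 6 of the 10 members had lower means in Piezo Gel+US and 4 had higher means, and no member was called. Of the 6 growth cone and cytoskeletal genes 5 were lower (median log2 fold change -0.75), and of the 4 transcription factors 3 were higher (median 0.37). The median over all 17066 genes tested was -0.021, with 52.9% of them lower. Neuron markers, listed below, had a median of -0.44 with 14 of 14 lower, and motor neuron markers -1.29 with 6 of 6 lower. Sensory ganglion neuron markers had -0.041 with 3 of 6 lower. Of the 9 sensory markers matched, these 6 passed the filter on low counts, the lowest averaging 0.738 CPM over all libraries. Prph belongs to both the motor and the sensory list. By edgeR's quasi-likelihood test with Benjamini-Hochberg adjustment over all genes, 0 of 10 members and 0% of genes passed, and every member had an adjusted p of 0.994. At an unadjusted p below 0.05 there were 2 members, Dpysl3 and Sox11, both lower, against 0.721% of all genes lower and 1.38% higher at that level. DESeq2 and limma-voom likewise called 0 members and had 2 members each at that level, beside 652 of 23195 and 282 of 17066 genes. When the edgeR fit took replicate numbers as a block there were 3 members, beside 986 of 17066 genes. The members were Gap43 (unadjusted p = 0.00392), Dpysl3 (0.0296) and Atf3 (0.0336), while Sox11 had 0.0579. The smallest adjusted p of a member in the block fit was 0.855. Leaving out 1 library at a time gave 0 to 5 members and 141 to 775 genes at that level, and 0 called. The 5 members, beside 775 of 17389 genes, were found without Gel+US replicate 2. The CPM of the groups did not overlap for 2 members, Dpysl3 and Sox11, both lower in Piezo Gel+US. Of all genes, 2.72% were separated in that direction and 4.07% in the other. In the 3 pairs of equal replicate number, 4 members were lower in Piezo Gel+US each time, Gap43, Basp1, Dpysl3 and Sox11 (14.7% of all genes), and 2 were higher each time, Atf3 and Klf6 (14.3%).

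**Figure D1:**
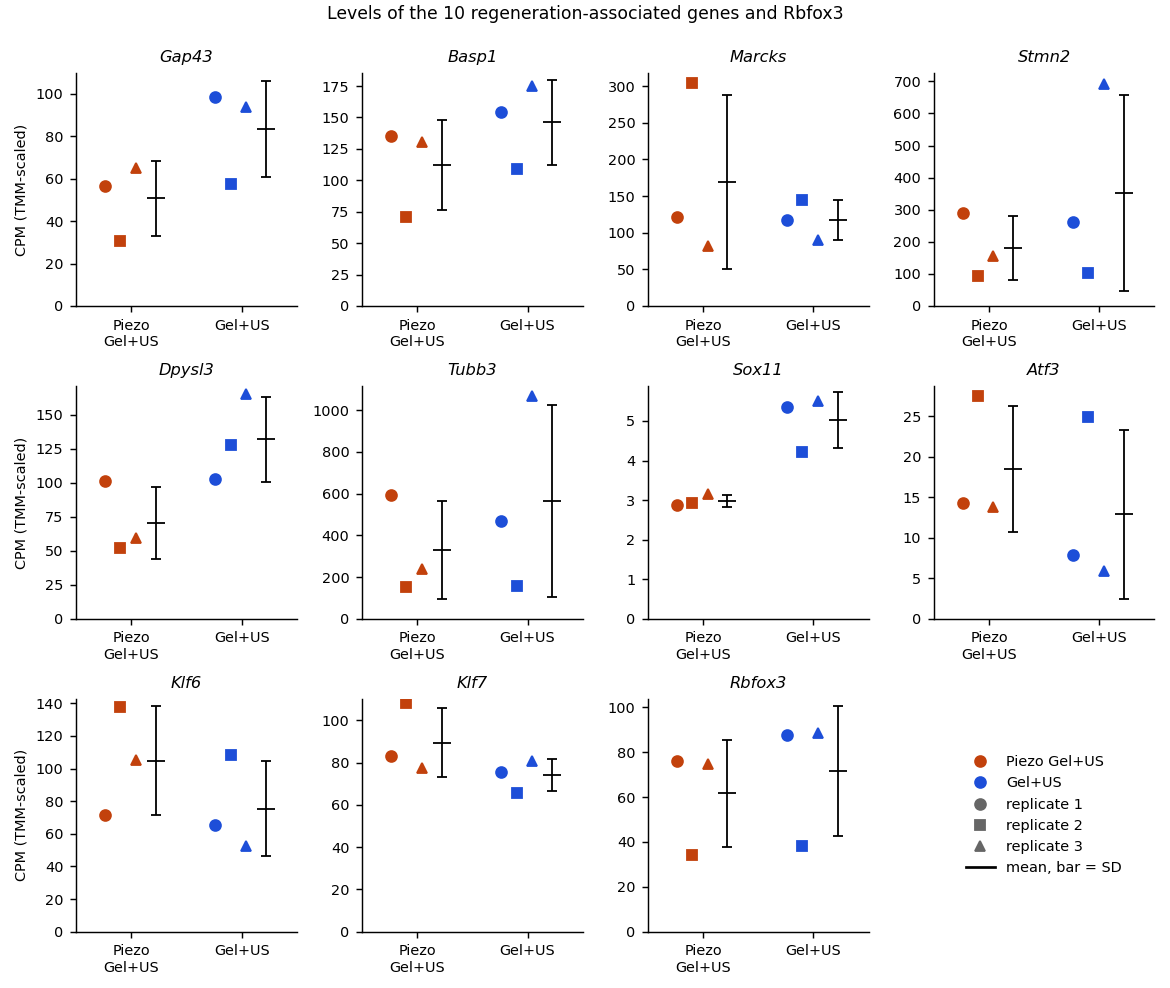
CPM of each member and of Rbfox3 in every library, with Piezo Gel+US on the left and Gel+US on the right of each panel; the shape gives the replicate number and the bar the mean with its SD (n = 3). Sox11 and Dpysl3 have no overlap between groups, though the gap of Dpysl3 lies within counting error, while Tubb3 and Stmn2 have 1 Gel+US library far above the rest.

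Gap43, a membrane protein of the growth cone and the classical marker of axon growth, lay lower in Piezo Gel+US. It measured 56.4, 30.8 and 64.9 CPM in Piezo Gel+US replicates 1 to 3, against 98.7, 57.4 and 94.1 CPM in Gel+US replicates 1 to 3. The ranges overlapped because the lowest Gel+US library fell between the upper values of Piezo Gel+US. The log2 fold change was -0.72 (95% interval -1.52 to 0.087). Without Piezo Gel+US replicate 2 it was -0.46.

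Basp1, which like Gap43 lines the inner face of the growth cone membrane, had a similar order of libraries. Levels were 135, 70.8 and 130.1 CPM in Piezo Gel+US, against 154, 109 and 175 CPM in Gel+US. The lowest library of each group was replicate 2, and the ranges overlapped. The log2 fold change was -0.39 (95% interval -1.12 to 0.35), and it was -0.15 without Piezo Gel+US replicate 2 and -0.24 when Gel+US replicate 3 was left out.

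Marcks, the protein kinase C substrate that binds membrane and actin, differed from these. It measured 122, 305 and 81.5 CPM in Piezo Gel+US, against 118, 144 and 90.3 CPM in Gel+US. A single library, Piezo Gel+US replicate 2, stood above the other 5, which overlapped. The log2 fold change of 0.53 (95% interval -0.64 to 1.70) turned to -0.22 without that library, and was 0.35 to 0.86 without any 1 of the others. Its relative Marcksl1 averaged 96.4 ± 22.1 CPM in Piezo Gel+US, against 74.3 ± 11.7 CPM in Gel+US (SD, n = 3 each).

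Stmn2, a tubulin-binding protein of growing axons, and Tubb3, the neuronal class of beta-tubulin, varied most. Stmn2 measured 291, 94.4 and 157 CPM in Piezo Gel+US, against 261, 104 and 693 CPM in Gel+US. Tubb3 measured 594, 153 and 239.9 CPM in Piezo Gel+US, against 469.6, 158 and 1067 CPM in Gel+US. In both genes Gel+US replicate 3 was highest, the replicates numbered 2 were lowest, and the groups overlapped. The log2 fold changes were -0.96 for Stmn2 (95% interval -2.68 to 0.76) and -0.78 for Tubb3 (95% interval -2.60 to 1.04). Without Gel+US replicate 3 they were -0.011 and 0.070. Leaving out Piezo Gel+US replicate 1 gave -1.51 for Stmn2 and -1.54 for Tubb3.

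Dpysl3, a collapsin response mediator protein of the growth cone, was lower in each Piezo Gel+US library than in any Gel+US library. Its levels were 101, 51.7 and 59.4 CPM in Piezo Gel+US, against 103, 128 and 165 CPM in Gel+US. The gap rested on 2 close values, those of the replicates numbered 1, which had 1899 counts in Piezo Gel+US and 2054 counts in Gel+US. Their CPM differed by a log2 of -0.02, which lies within counting error alone. The log2 fold change was -0.90 (95% interval -1.64 to -0.15, unadjusted p = 0.0252 and adjusted p = 0.994 by edgeR's quasi-likelihood test). Leaving out 1 library at a time gave -1.27 to -0.71.

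Sox11, a transcription factor of developing and regenerating neurons, was the other member with no overlap. It measured 2.88, 2.92 and 3.15 CPM in Piezo Gel+US, against 5.36, 4.22 and 5.51 CPM in Gel+US. It was the member with the smallest SD relative to its mean in Piezo Gel+US, 4.99%. That is below the 13.6% of counting error alone at its lowest count, so it does not measure the spread between animals. Gel+US replicate 2 was the nearest Gel+US library. The log2 fold change was -0.75 (95% interval -1.42 to -0.082, unadjusted p = 0.0329 and adjusted p = 0.994 by edgeR's quasi-likelihood test), and -0.87 to -0.69 with 1 library left out. The counts behind it were low, 54, 58 and 61 in Piezo Gel+US, against 107, 76 and 110 in Gel+US. The exact Poisson 95% interval of the lowest, 54, is 40.6 to 70.5, for counting error alone.

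The other transcription factors had higher means in Piezo Gel+US, with overlapping groups. Atf3, an early injury and stress-response factor, measured 14.3, 27.5 and 13.8 CPM in Piezo Gel+US, against 7.91, 24.9 and 5.96 CPM in Gel+US. The replicate numbered 2 was highest in each group. The log2 fold change was 0.52 (95% interval -0.88 to 1.93), and it ran from 0.11 without Piezo Gel+US replicate 2 to 1.41 without Gel+US replicate 2. Without Gel+US replicates 1 and 3 in turn it was 0.27 and 0.16.

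Klf6 and Klf7 are Krüppel-like factors that promote axon growth in zebrafish and rodents. Klf6 measured 71.7, 138 and 105 CPM in Piezo Gel+US, against 65.4, 108 and 52.8 CPM in Gel+US, again highest in the replicate numbered 2 of each group. Klf7 measured 83.0, 108 and 77.3 CPM in Piezo Gel+US, against 75.7, 65.8 and 80.6 CPM in Gel+US. Piezo Gel+US replicate 2 was the highest, and replicate 1 of that group also lay above all Gel+US libraries. The log2 fold changes were 0.47 for Klf6 (95% interval -0.35 to 1.30) and 0.27 for Klf7 (95% interval -0.18 to 0.72). Without Piezo Gel+US replicate 2 they were 0.22 and 0.11. The value for Klf6 was 0.82 when Gel+US replicate 2 was left out and 0.26 when replicate 3 of that group was.

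**Figure D2:**
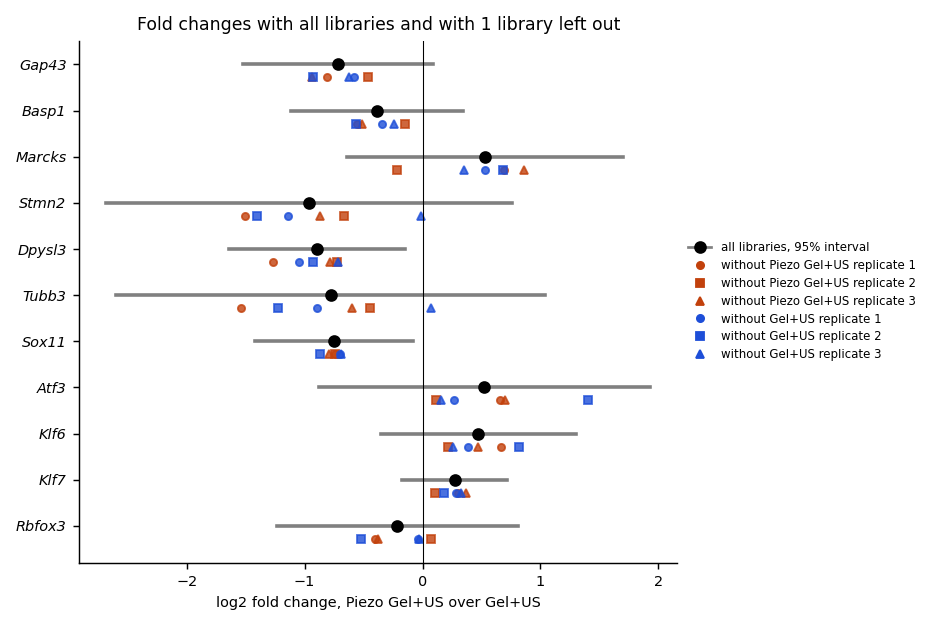
Log2 fold change of each member and of Rbfox3, Piezo Gel+US over Gel+US, from edgeR with all libraries (black point, 95% interval) and with 1 library left out (coloured marks below). Sox11 stays between -0.87 and -0.69, while Marcks and Tubb3 cross 0.

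Members differed in which of the 6 libraries held their highest values. The distance used to compare them is the root mean square difference between the log2 CPM of a pair of genes, each after subtracting its own mean. Stmn2 and Tubb3 were the closest pair (0.155), followed by Gap43 and Basp1 (0.202), and Atf3 was closest to Klf6 (0.397). The farthest pair was Tubb3 and Atf3 (1.775). Gel+US replicate 3 was the highest library for 5 members, Basp1, Stmn2, Dpysl3, Tubb3 and Sox11. Piezo Gel+US replicate 2 was the highest for 4, Marcks, Atf3, Klf6 and Klf7, and the lowest for 5, Gap43, Basp1, Stmn2, Dpysl3 and Tubb3. The distances describe these 6 libraries.

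The cell-type markers also differed between those libraries. Neuron markers, led by Nefm and Nefh, summed to 7417, 2068 and 4599 CPM in Piezo Gel+US, against 6561, 2659 and 13407 CPM in Gel+US. The sum of 6 motor neuron markers, led by Prph and Slc18a3, was 478, 76.4 and 98.5 CPM in Piezo Gel+US, against 366, 53.4 and 1043 CPM in Gel+US, so that its 4 highest libraries had the same order as in Tubb3 and Stmn2. Schwann cell markers, led by Prx and Drp2, summed to 1450.5, 8669.9 and 2761 CPM in Piezo Gel+US and 905 to 1596 CPM in Gel+US. Fibroblast markers, led by Col1a1 and Col3a1, summed to 1419, 6209 and 1793 CPM in Piezo Gel+US, against 1291, 7900.2 and 801 CPM in Gel+US, highest in the replicates numbered 2, where Atf3 and Klf6 were also highest. The microglia and macrophage sum, led by Csf1r and Gpnmb, was 274 to 1141 CPM in Piezo Gel+US and 548 to 1107 CPM in Gel+US. The astrocyte sum, led by Aqp4 and Slc1a2, was 775 to 2583 CPM in Piezo Gel+US and 1755 to 2853 CPM in Gel+US. Both sums were lowest in Piezo Gel+US replicate 2. In these bulk samples fewer cells of a type and less RNA per cell cannot be told apart, and the part of this mixture in the members' values was not tested.

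Of the marker genes tested, 0 of any list were called. All 14 neuron, 6 motor neuron and 7 astrocyte markers were lower, as were 10 of 11 microglia and macrophage markers. All 9 Schwann cell markers were higher, by log2 fold changes of 0.0015 to 2.14. These are directions with all 6 libraries, and the counts were not repeated with 1 library left out. Rbfox3, of the neuron list, turned to 0.072 without Piezo Gel+US replicate 2. The fibroblast list had 4 of 8 higher. Oligodendrocyte markers (Mbp, Cnp) had 4 of 8 higher, precursor markers (Bcas1, Olig1) 3 of 6, endothelial markers (Cldn5, Flt1) 3 of 6 and sensory ganglion neuron markers (Prph, Avil) 3 of 6. All 5 ependymal markers tested (Ccdc39, Dnah11) and all 7 cell cycle markers (Mki67, Top2a) were lower. No matched marker was at 0 in all libraries, and Gfap was not analysed here.

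**Figure D3:**
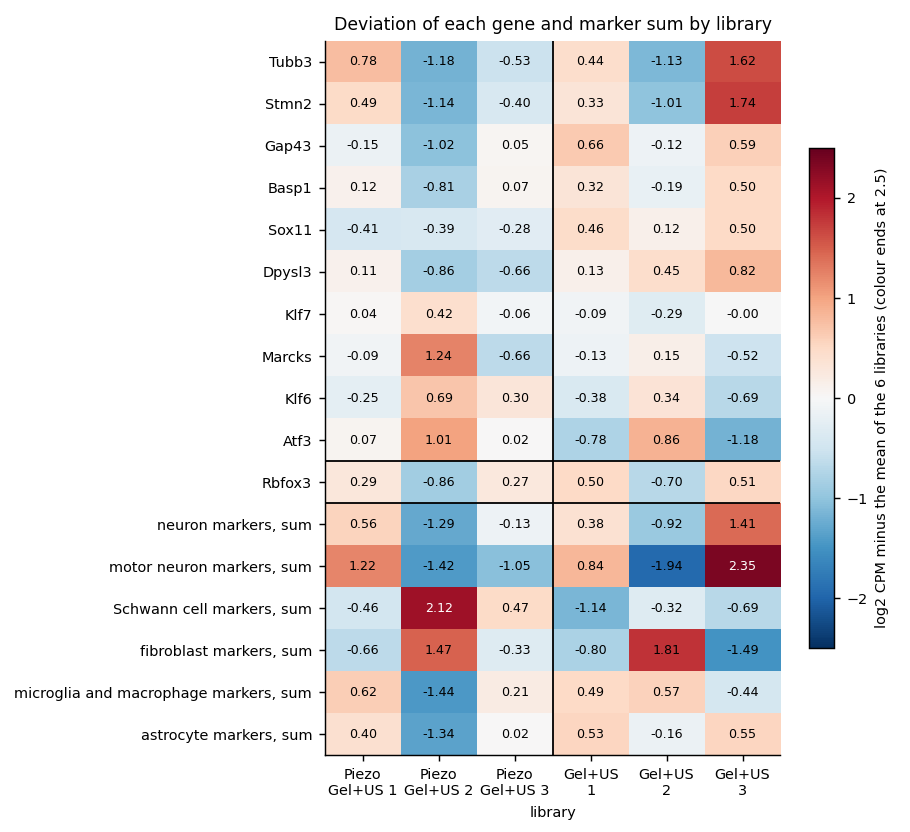
Log2 CPM of each member, Rbfox3 and the summed markers of 6 cell types, minus the mean of the 6 libraries, with Piezo Gel+US in the left columns; red is above and blue below that mean. Piezo Gel+US replicate 2 is high for Marcks (1.24), Atf3 (1.01) and the Schwann cell sum (2.12) and low for Tubb3 (-1.18) and the neuron sum (-1.29).

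Rbfox3, the nuclear protein NeuN of most neurons, was the reference for neuron content. It measured 76.2, 34.2 and 74.8 CPM in Piezo Gel+US, against 87.8, 38.2 and 88.7 CPM in Gel+US, low in the replicate numbered 2 of each group. Its log2 fold change was -0.21 (95% interval -1.23 to 0.81). A ratio of counts within a library does not depend on library size.

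Relative to Rbfox3, Gap43 was the member whose groups separated. It had 0.740, 0.900 and 0.867 counts per Rbfox3 count in Piezo Gel+US, against 1.12, 1.5 and 1.06 in Gel+US. All 3 Piezo Gel+US libraries lay below 1 and all 3 Gel+US libraries above it. The mean log2 ratio was -0.26 ± 0.15 in Piezo Gel+US, against 0.28 ± 0.27 in Gel+US (SD, n = 3 each), a difference of -0.54. The exact two-sided permutation p was 0.1, unadjusted for the 10 members compared, which is the smallest that 3 against 3 samples allow. For the differences between equal replicate numbers, taken as pairs, the exact two-sided permutation p was 0.25, the smallest that 3 pairs allow. Of all genes tested, 1.24% were separated in that direction relative to Rbfox3 and 0.416% in the other. Differences were below 0 for 6 of the 10 members and for 28.7% of all genes, and the ratio was lower in all 3 pairs of equal number for 2 members, Gap43 and Sox11, and for 4.81% of all genes. It was higher in all 3 pairs for 4 members, Marcks, Atf3, Klf6 and Klf7, and for 34.7% of all genes.

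The ratio depended on which neuronal gene was the reference. The 14 neuron markers were Rbfox3, Snap25, Syt1, Eno2, Uchl1, Map2, Elavl3, Elavl4, Nefm, Nefh, Syn1, Celf4, Thy1 and Sv2a. The difference for Gap43 was below 0 with 12 of the 14 neuron markers and above 0 with Nefm (0.089) and Nefh (0.098). The groups were separated with 4 of the 14 markers, Rbfox3, Eno2, Syn1 and Sv2a. Of these, Eno2, Syn1 and Sv2a were made references after seeing the data. Snap25, Elavl4 and the mean of the 14 markers were not chosen that way, and with each of them the groups overlapped. The differences for Gap43 were then -0.32, -0.28 and -0.29 (exact two-sided permutation p = 0.4 each). With Syt1 and Map2 the difference was -0.0038 and -0.092, also with overlap. The 14 references come from the same libraries and are not independent.

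Dpysl3 and Sox11, which were separated in CPM, overlapped relative to Rbfox3. Dpysl3 had 1.33, 1.51 and 0.794 counts per Rbfox3 count in Piezo Gel+US, against 1.17, 3.35 and 1.86 in Gel+US. The difference in mean log2 ratio was -0.73 (exact two-sided permutation p = 0.3), and -0.34 without Gel+US replicate 2, and it was below 0 with 14 of 14 references. Sox11 had 0.0378, 0.0852 and 0.0421 counts per Rbfox3 count in Piezo Gel+US, against 0.0610, 0.110 and 0.0621 in Gel+US. Its difference was -0.54 (exact two-sided permutation p = 0.3), and -0.26 without Gel+US replicate 2 but -0.91 without the Piezo Gel+US library of that number. Within each pair of equal replicate number the Sox11 ratio was lower in Piezo Gel+US, by log2 differences of -0.69, -0.37 and -0.56.

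Basp1 kept the most even ratio to Rbfox3, 1.77, 2.07 and 1.74 in Piezo Gel+US, against 1.76, 2.85 and 1.97 in Gel+US. Its highest ratio was 1.64 times its lowest, the smallest such range of the 10 members. The difference was -0.21 (exact two-sided permutation p = 0.6), and its sign changed with 7 of the 14 references. Stmn2 and Tubb3 had differences of -0.50 and -0.42 (exact two-sided permutation p of 0.5 and 0.6), which were -0.015 and 0.034 without Gel+US replicate 3, the library with the highest ratio of each.

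Marcks, Atf3, Klf6 and Klf7 lay higher relative to Rbfox3, with wide overlap. Atf3 had 0.188, 0.805 and 0.184 counts per Rbfox3 count in Piezo Gel+US, against 0.0901, 0.650 and 0.0672 in Gel+US, and its highest ratio was 12 times its lowest. Klf6 had 0.941, 4.02 and 1.40 in Piezo Gel+US, against 0.745, 2.83 and 0.595 in Gel+US. In both genes the replicate numbered 2 of each group, where Rbfox3 was low, had the highest ratio. The differences were 0.53 for Marcks, 0.94 for Atf3, 0.69 for Klf6 and 0.46 for Klf7 (exact two-sided permutation p of 0.5 to 0.6). All 14 references were lower in Piezo Gel+US and these members higher, so differences above 0 with 14 of 14 references were fixed in advance. Without Piezo Gel+US replicate 2 the differences relative to Rbfox3 were -0.39, 0.24, 0.091 and -0.059. When replicate 2 of Gel+US was left out they were 1.09, 1.96, 1.39 and 0.78, and for Atf3 the exact two-sided permutation p was then 0.1, the smallest that 3 against 2 samples allow.

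**Figure D4:**
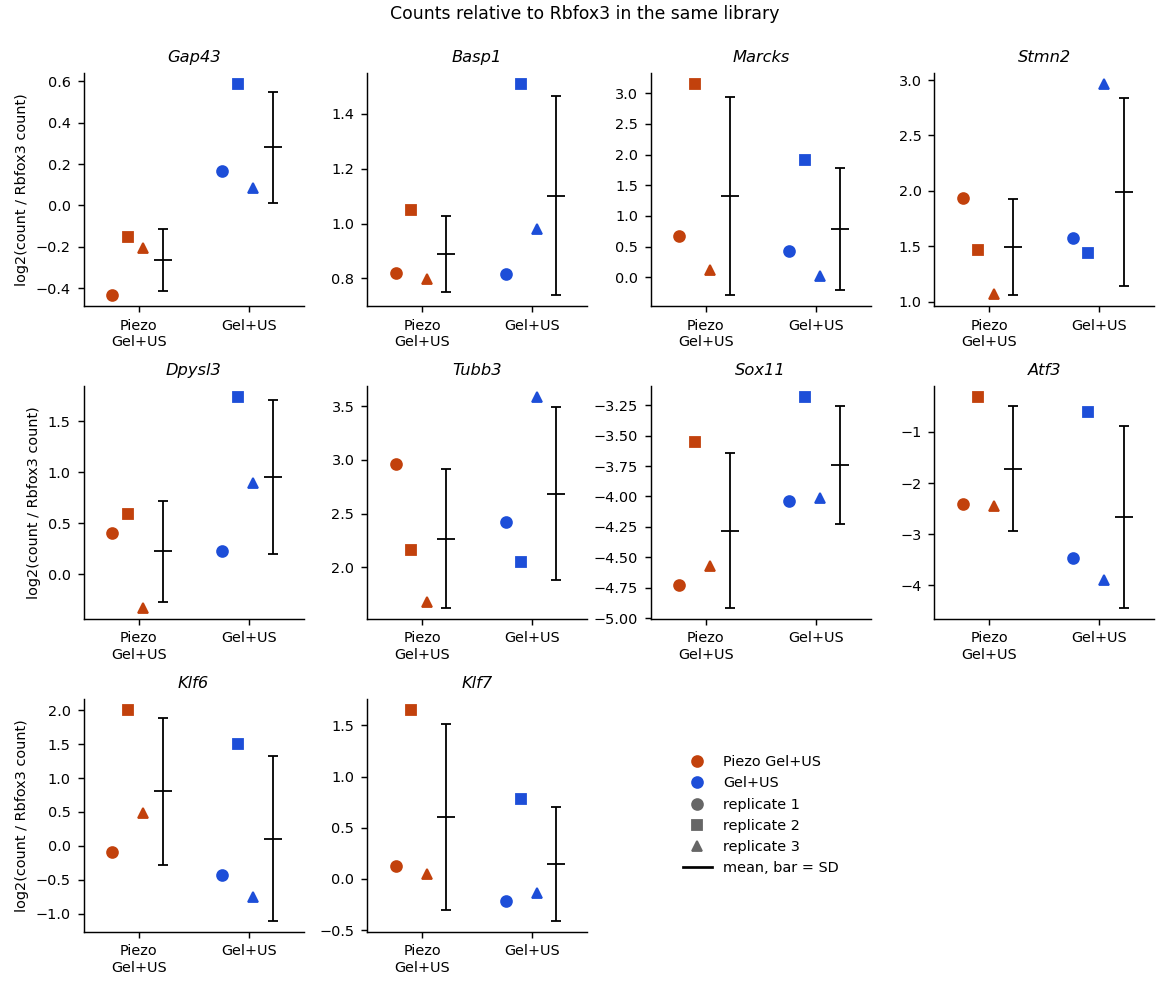
Log2 of each member's count over the Rbfox3 count in the same library, Piezo Gel+US left of Gel+US; bars are the mean with its SD (n = 3). Gap43 is the panel without overlap, with means of -0.26 and 0.28.

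Relatives of the members gave no call either. Of 19 relatives listed, 17 were matched and tested, 8 higher and 9 lower, with a median log2 fold change of -0.14. Among the stathmins, Stmn1, which is also made in dividing cells, averaged 513 ± 138 CPM in Piezo Gel+US, against 378 ± 89.2 CPM in Gel+US, on the other side from Stmn2. Stmn3 and Stmn4, the neuronal stathmins, had log2 fold changes of -0.42 and -0.33. The 4 relatives of Dpysl3 were all lower, with -0.60 for Dpysl4, -0.56 for Crmp1, -0.22 for Dpysl5 and -0.14 for Dpysl2. Sox4 and Sox12, which form the SoxC group with Sox11, had 0.048 and 0.31, and Klf2, Klf4 and Klf9 had 0.033, -0.19 and -0.17. Klf4 and Klf9 are known to restrain axon growth in rodent neurons. Jun and Atf4, of the basic leucine zipper family like Atf3, had 0.11 and 0.23, and the beta-tubulins Tubb2a and Tubb6 had -0.25 and 0.061.

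The list of 32 other regeneration-associated genes had 28 matched and tested, 11 higher and 17 lower, with a median log2 fold change of -0.16 and 0 called. The most abundant was Nefl, the light neurofilament chain, with 2642, 489 and 1218 CPM in Piezo Gel+US, against 2327, 749 and 5653 CPM in Gel+US. Its highest library was Gel+US replicate 3, as for Stmn2 and Tubb3. The adhesion molecules Ncam1 and L1cam had log2 fold changes of -0.13 and -0.18, the vesicle protein Rab3a -0.20, the heat shock protein Hspb1 -0.59 and the neuropeptide Npy 0.085. Stat3, the transcription factor downstream of gp130, averaged 168 ± 6.68 CPM in Piezo Gel+US, against 177 ± 12.1 CPM in Gel+US, and Il6st, which encodes gp130, averaged 172 ± 10.0 CPM in Piezo Gel+US, against 203 ± 20.1 CPM in Gel+US. Only Cntf, a neurotrophic cytokine made by Schwann cells and astrocytes, had an unadjusted p below 0.05 (edgeR quasi-likelihood test, named after its value was seen). It measured 62.0, 263 and 104 CPM in Piezo Gel+US, against 40.2, 61.2 and 70.0 CPM in Gel+US, highest in the library with the highest Schwann cell sum.

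The genes outside the set whose profile over the 6 libraries lay closest to that of Gap43 were Gria1 (distance 0.081), Ca12 (0.12), Efna5 (0.131), Phf24 (0.131) and Ephb1 (0.133), out of 10243 genes with a mean log2 CPM of at least 3. Gria1, an AMPA receptor subunit, measured 38.1, 19.3 and 46.5 CPM in Piezo Gel+US, against 62.2, 35.2 and 58.0 CPM in Gel+US. Efna5 and Ephb1 are a ligand and a receptor of the ephrin system. The distances describe these libraries only.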

How the data were processed

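Polyadenylated RNA of 6 lesion cores was sequenced as strand-specific libraries, per the labels' protocols. The authors deposited a table of integer read counts for each gene, without normalisation. Per the submitters' processing notes the tools were HISAT2 2.0.5, fastp 0.19.7, DESeq2 1.20.0 and featureCounts 1.5.0-p3, with no roles stated. The genome build and whether counting used the strand are not given in the sources used here. In the deposited annotation no other gene overlaps any of the 10 members. Its gene identifiers had 0 matches in the RefSeq table of GRCr8, while all 10 members matched by symbol, so the authors' annotation is another one. The form of the identifiers and sequence names resembles, by general knowledge, an annotation of Rattus rattus, the black rat, whereas the labels give Rattus norvegicus. How a reference of another species would bear on the counts, on the gene lengths behind CPM per kb and on the unmatched symbols was not tested. Promoters came from RefSeq (GRCr8) by symbol.

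Counts were analysed with edgeR 4.0.16 in R 4.3.3 (TMM factors, filterByExpr with minimum count 10 and minimum total count 15, robust quasi-likelihood F test, group as the only term). A gene was called at a Benjamini-Hochberg adjusted p below 0.05 over 17066 genes. The common biological coefficient of variation was 0.382. DESeq2 1.42.0 and limma 3.58.1 served as alternatives, along with other scalings, no filter, a replicate block, a covariate and leaving out 1 library. The procedure was tested on simulated data, with changes far larger than those of the members, so detection of changes of their size was not tested. The members and lists were chosen with earlier results of these data known.

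Named are the members, Rbfox3, the 14 neuron markers, the relatives and the 8 most abundant other regeneration genes. Also named are the 2 most abundant genes of each other marker list and the 5 closest to Gap43. Of 32 other regeneration genes 4 were unmatched (Sprr1a, Lgals1, Map1b, Csrp1), and of the relatives Tubb2b and Tuba1a. Unmatched markers were Itgam and Lyz2 (microglia and macrophage), Calca (sensory ganglion neuron), Pmp22 (Schwann cell) and Gfap (astrocyte). A gene each of the Schwann cell and oligodendrocyte lists is not reported here and is left out of their counts and sums. Protein comparisons were not made because no protein sequences were used here. Deviations from the group means correlated between same-numbered libraries at 0.253, 0.296 and 0.251 for replicates 1 to 3, which by the rule for this check pairs them. Only the data give this pairing, since the labels do not say what a number shares.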

Additional observations from a re-analysis of the deposited data

How the results depend on the processing

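No gene was called in any of the 16 other fits, and no member either. With the replicate number as a block the log2 fold changes were -0.75 for Gap43, -0.94 for Dpysl3, -0.74 for Sox11 and 0.73 for Atf3, and the block changed no call, with 986 genes at an unadjusted p below 0.05 against 359 without it. With log2 Rbfox3 CPM as a covariate, as planned, log2 fold changes were -0.60 for Gap43, -0.87 for Dpysl3, -0.71 for Sox11 and 0.16 for Marcks. No member changed sign in the covariate fit. By edgeR's quasi-likelihood test 3 members, Gap43, Dpysl3 and Sox11, then had an unadjusted p below 0.05, beside 649 of 17066 genes. With Rbfox3 counts as library size, chosen after seeing the data, the median of all genes moved to 0.16, and no member changed sign. Marcks had a log2 fold change of -0.037 without both replicates numbered 2, an alternative also chosen after seeing the data. Leaving out 1 library gave ranges of -0.22 to 0.86 for Marcks, -1.54 to 0.070 for Tubb3 and -0.52 to 0.072 for Rbfox3. For differences relative to Rbfox3 the ranges were -0.39 to 1.13 for Marcks, -0.77 to 0.034 for Tubb3 and -0.059 to 0.78 for Klf7. Other references, all but Snap25, Elavl4 and the marker mean chosen after seeing the data, turned some of these differences above 0. For Gap43 it was 0.089 with Nefm and 0.098 with Nefh, and for Sox11 0.091 and 0.10. For Stmn2 it was 0.038 with Syt1, 0.13 with Nefm and 0.14 with Nefh, and for Tubb3 0.12 with Syt1, 0.034 with Map2, 0.21 with Nefm and 0.22 with Nefh. For Basp1 it was 0.0082 with Snap25, 0.33 with Syt1, 0.24 with Map2, 0.052 with Elavl4, 0.42 with Nefm, 0.43 with Nefh, 0.076 with Celf4 and 0.040 with the marker mean. The causes were not tested. Relative to the lowest count, counting error was largest for Sox11 (13.6%), which had 54 to 110 counts. For Dpysl3 the gap between the groups lay within counting error.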
